A study of Homo sapiens with 12 samples.

Results

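The genes described here are the human heat shock proteins and J-domain chaperones. They were taken by gene symbol as those named HSPA, HSPB, HSP90, DNAJA, DNAJB or DNAJC, together with HSPD1, HSPE1, HSPH1 and the transcription factor gene HSF1, with pseudogenes and the genes of HSP70 and HSPB binding proteins left out. The rule found 72 of the 18239 genes with a probe set of their own, and where a gene had several, the one with the highest mean over the 12 arrays stands for it. They comprise 28 DNAJC, 12 DNAJB and 4 DNAJA genes, 15 genes of the HSP70 type with HSPH1 among them, 7 small heat shock protein genes, 3 HSP90 genes, HSPD1, HSPE1 and HSF1. A gene was tested when its level exceeded 4.20 on the log2 scale, the 40th percentile of all values, on at least 3 arrays. This held for 63 of the 72 members and for 13120 of the 18239 genes, while DNAJB7, DNAJB8, DNAJC22, DNAJC28, HSPA6, HSPA12B, HSPB3, HSPB8 and HSPB9 lay too low.

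RNA was measured on 12 Affymetrix expression arrays, 1 for each of 3 established human cell lines under each of 4 conditions. The lines OCI-LY3, OCI-HBL1 and OCI-LY10 (replicates 1, 2 and 3) derive from diffuse large B cell lymphoma of the activated B cell type (ABC-DLBCL). Control cells carry no further description of a vehicle, CPI203 cells received 500 nM of CPI203, which blocks BET bromodomain proteins, IRAKi cells received 50 µM of an inhibitor of the IRAK kinases whose chemical identity is not stated, and Combo cells received both. By their labels the IRAKi samples were taken at 6 h and all others at 24 h, whereas the treatment protocol gives 18 h of CPI203 and 6 h of IRAKi. Treatment and label time can therefore not be told apart in any comparison of IRAKi alone with another group. Each group has n = 3, 1 array for each line, and cell line is a term of the model. P-values therefore measure how the treatment changes vary between these lines, not how the lines differ in level. In RNA from whole cultures, fewer expressing cells and less RNA per cell cannot be told apart.

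Heat shock proteins are molecular chaperones that hold, fold and refold other proteins. HSP70 proteins cycle on and off their clients with the help of J-domain proteins, which deliver clients and trigger ATP hydrolysis, and many clients are passed on to HSP90. HSF1 raises the inducible members after heat or other protein damage by binding heat shock elements, repeats of the letters GAA in alternating orientation, while ER members answer to the unfolded protein response through the ER stress response element.

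Promoter sequence is shown for members on which the results below turn and for HSPA5 as the ER counterpart. The stretches are RefSeq sequence of build GRCh38.p14, all upstream of the annotated start, read on the strand of the gene and 130 bases long: HSPA1A (chr6:31815376-31815505, plus strand), HSPA1B (chr6:31827572-31827701, plus strand), HSPA8 (chr11:123062137-123062266, minus strand), HSP90AA1 (chr14:102087062-102087191, minus strand), HSPD1 (chr2:197499961-197500090, minus strand), DNAJA1 (chr9:33025023-33025152, plus strand), DNAJB1 (chr19:14518398-14518527, minus strand), DNAJA4 (chr15:78264429-78264558, plus strand), DNAJB4 (chr1:78004780-78004909, plus strand) and HSPA5 (chr9:125241344-125241473, minus strand). Capitals mark matches to a heat shock element motif, which is GAANNTTC or TTCNNGAA on either strand, or its longer form GAANNTTCNNGAA or TTCNNGAANNTTC, and in HSPA5 the ER stress response element, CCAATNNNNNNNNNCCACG or its reverse complement. The longer form contains the shorter one. DNAJA4, DNAJB1, DNAJB4, HSP90AA1 and HSPD1 have further annotated starts. For these genes the stretch with a match is shown, and the bases before their other starts held none.
HSPA1A: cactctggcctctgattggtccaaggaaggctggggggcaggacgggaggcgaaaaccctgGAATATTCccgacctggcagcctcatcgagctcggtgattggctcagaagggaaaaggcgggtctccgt
HSPA1B: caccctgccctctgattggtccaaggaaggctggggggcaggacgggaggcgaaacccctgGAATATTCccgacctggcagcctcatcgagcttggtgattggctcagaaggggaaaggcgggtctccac
HSPA8: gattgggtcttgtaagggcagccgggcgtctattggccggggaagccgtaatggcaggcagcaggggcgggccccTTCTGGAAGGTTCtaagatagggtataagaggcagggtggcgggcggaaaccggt
HSP90AA1: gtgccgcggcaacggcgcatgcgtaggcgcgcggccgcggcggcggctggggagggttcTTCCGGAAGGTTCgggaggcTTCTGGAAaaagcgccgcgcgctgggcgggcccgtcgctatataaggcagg
HSPD1: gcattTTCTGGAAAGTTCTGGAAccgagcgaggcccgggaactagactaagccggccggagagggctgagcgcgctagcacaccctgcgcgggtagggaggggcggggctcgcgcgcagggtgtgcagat
DNAJA1: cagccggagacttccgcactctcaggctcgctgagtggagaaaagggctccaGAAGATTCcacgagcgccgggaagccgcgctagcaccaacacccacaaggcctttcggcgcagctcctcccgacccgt
DNAJB1: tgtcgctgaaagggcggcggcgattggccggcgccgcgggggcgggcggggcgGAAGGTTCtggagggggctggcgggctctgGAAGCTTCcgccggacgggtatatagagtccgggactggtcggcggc
DNAJA4: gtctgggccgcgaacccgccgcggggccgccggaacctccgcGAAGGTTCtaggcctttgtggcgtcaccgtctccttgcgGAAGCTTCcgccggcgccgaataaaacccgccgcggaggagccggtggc
DNAJB4: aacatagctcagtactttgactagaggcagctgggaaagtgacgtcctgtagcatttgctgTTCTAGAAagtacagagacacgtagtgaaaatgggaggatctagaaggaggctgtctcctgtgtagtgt
HSPA5: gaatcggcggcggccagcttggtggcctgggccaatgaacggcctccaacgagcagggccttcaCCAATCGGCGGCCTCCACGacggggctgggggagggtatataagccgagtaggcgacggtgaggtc
A RefSeq window of 300 bases, 250 before and 50 after the start, was at hand for 64 of the 72 members. The shorter motif occurred in 22 of these (34.4%), against 16.2% of 27305 genes with such windows. A gene was counted when any of its windows had a match, and HSPA1A and HSPA1L share the same match on opposite strands. The longer form occurred in 7 members (10.9%), DNAJA1, DNAJB6, HSP90AA1, HSP90AB1, HSPA6, HSPA8 and HSPD1, against 0.608% of all genes; that of DNAJA1 lies outside the stretch shown. HSPA5 and HSP90B1 were the members with the ER element, which 0.0916% of all genes had. A match describes the letters of the window, not a bound site.

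The arrays were checked against cell type markers and spiked-in controls. All 5 measured B cell markers and all 6 ABC-DLBCL markers exceeded the filter level on every array, and none of the 4 T cell, 4 myeloid and 4 stromal markers did so. The summed B cell markers reached 13.1 to 13.2 on the log2 scale in Control, 12.3 to 12.9 with CPI203, 13.0 to 13.2 with IRAKi and 12.2 to 12.9 with Combo. The T cell and myeloid markers reached at most 4.92 and 4.81. Of the stromal markers, COL3A1 exceeded the filter level on the 4 OCI-LY10 arrays, at 5.46 to 6.65, and on no other array. The poly-A spike-in RNA exceeded its level in the Control of the same line by 0.31 ± 0.17 (log2, SD, n = 3) under CPI203, by 0.23 ± 0.04 under IRAKi and by 0.48 ± 0.26 under Combo. Scaling each array to these spikes moved the median of all genes to -0.298, -0.230 and -0.487 under CPI203, IRAKi and Combo. Directions below therefore hold relative to the median gene of the deposited scale. Counts under spike scaling are given with the groups of members and lists. The share of all genes called under spike scaling was not counted, so these counts have no background beside them. The part of the spikes in the results was not tested.

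The members' RNA moved in both directions, and most widely when both compounds were given. With Combo against Control, 11 of the 63 tested members rose and 14 fell at an adjusted p below 0.05 (limma, Benjamini-Hochberg over all genes tested), 39.7% of members against 32.1% of all genes tested. Over all genes 15.4% rose and 16.7% fell, and the members' median log2 change was -0.10 against -0.003 for all genes. Under spike scaling 3 members rose and 32 fell, with the median of all genes at -0.487 and no count of called genes over all genes beside it. Of the 25 calls, 10 remained without each cell line in turn. Without cell line in the model 3 of the 63 members were called, against 465 of the 13120 genes tested.

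With CPI203 against Control, 5 members rose and 5 fell (15.9% of members, against 13.1% of all genes tested, of which 6.92% rose and 6.21% fell). Their median log2 change was -0.03, against 0.008 for all genes. Spike scaling turned this split to 2 risen and 7 fallen, and median centring called 7 risen and 5 fallen. The call of DNAJC1 was the 1 of the 10 that remained without each cell line in turn.

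With IRAKi against Control no member passed the test (limma), at a background of 0.168% or 22 genes of all tested, of which 0.114% rose and 0.0534% fell. At an unadjusted p below 0.05 there were 15 of the 63 tested members and 2018 of the 13120 genes tested. The members' median log2 change was -0.09 against -0.001 for all genes. With limma's trend and robust estimation 4 members were called, HSPA13 higher and DNAJA1, HSP90AA1 and HSPA8 lower. Spike scaling called HSPA1B and DNAJC17 lower. The CPI203, IRAKi and Combo comparisons share the Control arrays.

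**Figure D1:**
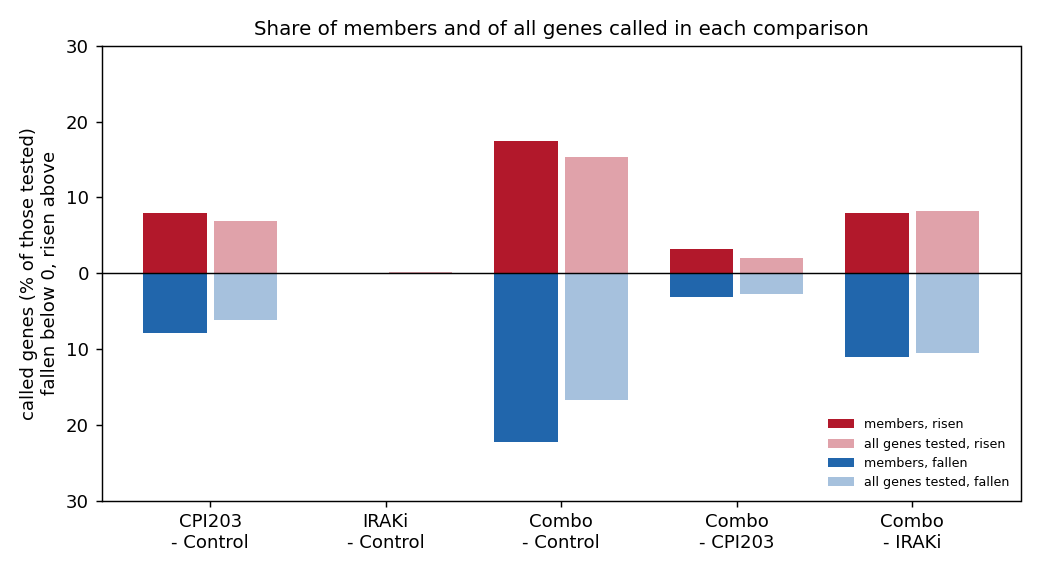
Share of the 63 tested members (dark bars) and of all 13120 genes tested (pale bars) that rose (above 0, in %) or fell (below 0, in %) at an adjusted p below 0.05 in each of the 5 comparisons. With Combo against Control 39.7% of members and 32.1% of all genes were called, and with IRAKi against Control no member was.

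**Figure D2:**
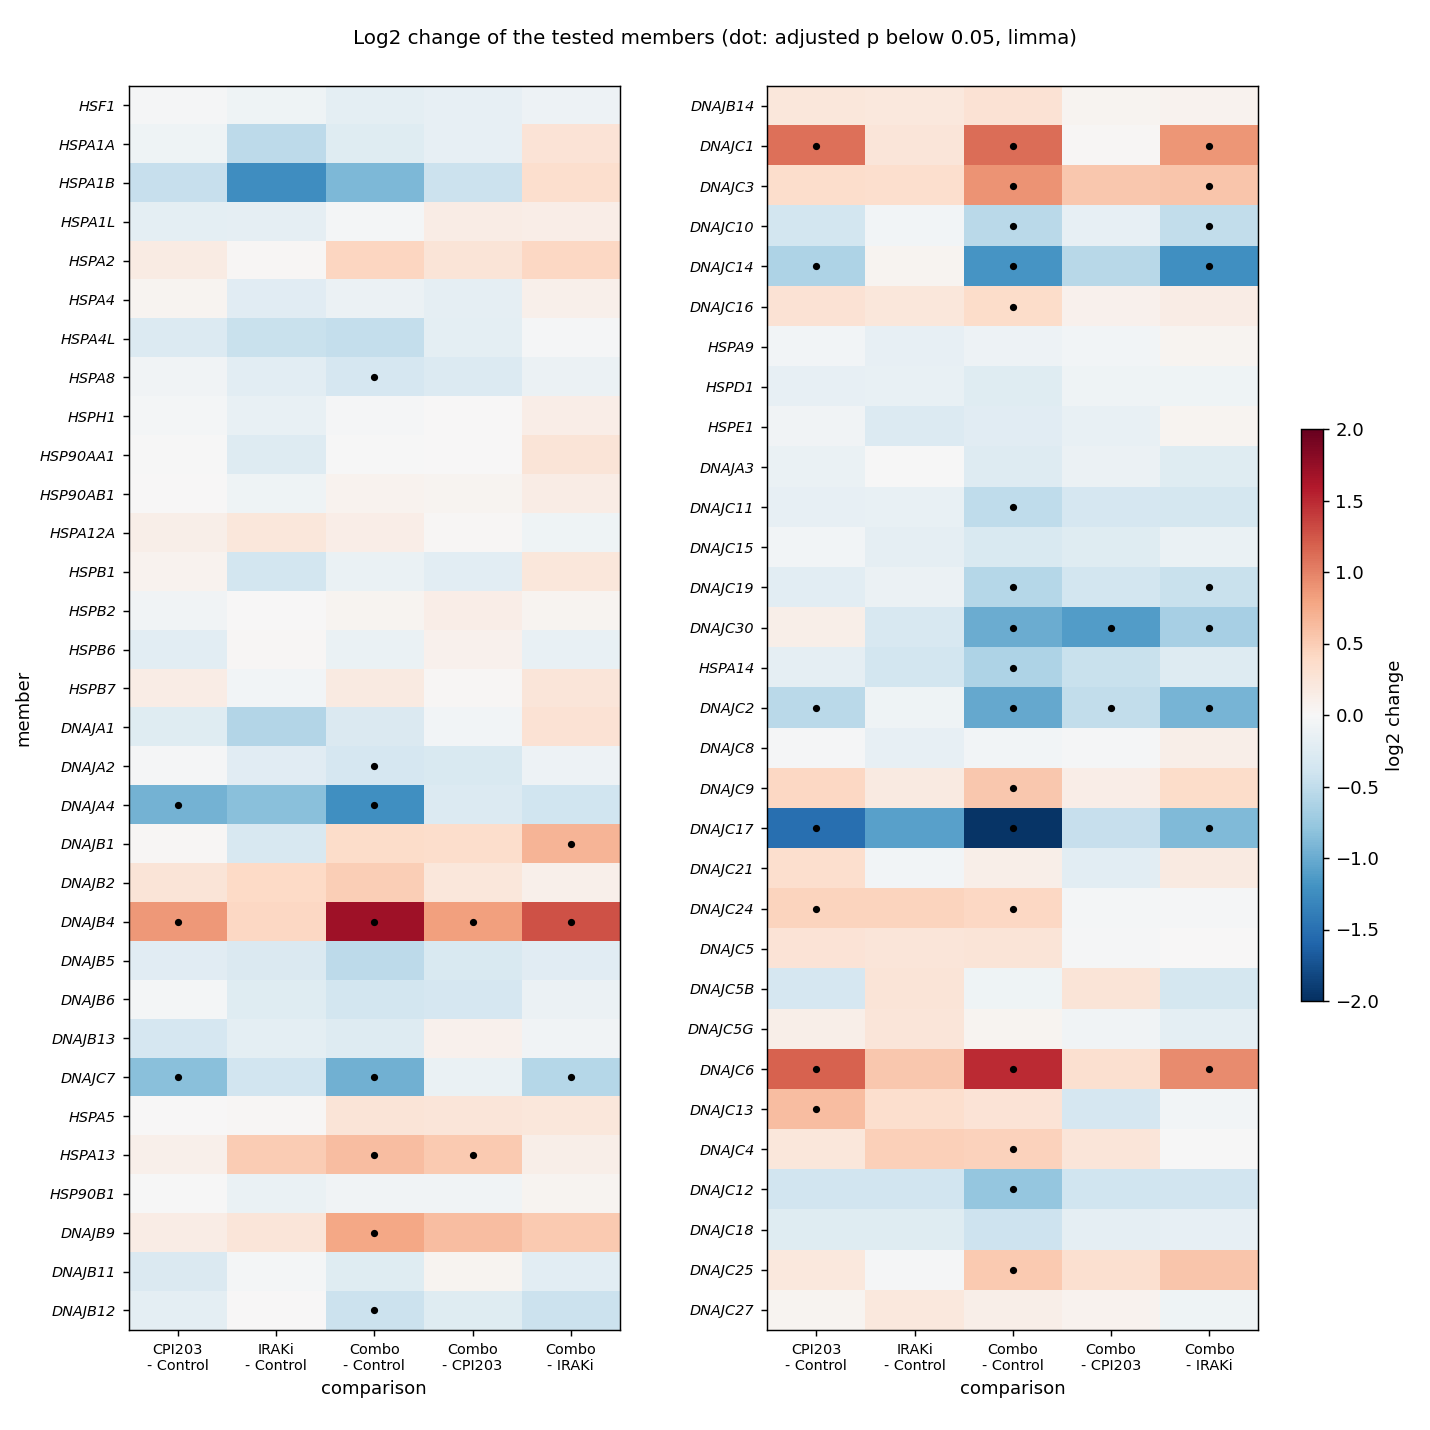
Colour gives the log2 change of each tested member (vertical axis) in each of the 5 comparisons (horizontal axis), from blue (lower) to red (higher), and a dot marks an adjusted p below 0.05. The values run from -1.96 for DNAJC17 to 1.69 for DNAJB4, both with Combo against Control.

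Among HSF1 and the cytosolic HSP70 and HSP90 genes, 1 of 12 tested members was called in any comparison with Control, and that was HSPA8 with Combo. The background for this and the later groups and lists is the share of all genes called. It was 32.1% with Combo (15.4% risen, 16.7% fallen), 13.1% with CPI203 and 0.168% with IRAKi. HSF1 itself showed little movement between groups. Its levels, given here and below in the order OCI-LY3, OCI-HBL1 and OCI-LY10, were 6.90, 6.86 and 6.59 in Control, 7.01, 6.73 and 6.52 with CPI203, 6.83, 6.91 and 6.34 with IRAKi and 6.33, 6.88 and 6.54 with Combo. The groups overlapped, and the log2 change with Combo was -0.20 ± 0.16 (adjusted p = 0.393) (± SE, n = 3). Under spike scaling none of the 12 rose and 6 fell with Combo, HSF1 among them.

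HSPA8 encodes the constitutive cytosolic HSP70. It read 14.23, 14.33 and 14.10 in Control, 14.14, 14.30 and 14.03 with CPI203, 14.11, 14.10 and 13.79 with IRAKi and 13.92, 14.10 and 13.64 with Combo. Every line stood lowest with Combo, and the highest Combo level came within rounding of the lowest Control level. HSPA8 fell by 0.33 on the log2 scale with Combo (SE 0.10, adjusted p = 0.0322). The call was lost with OCI-LY3 (adjusted p = 0.157), OCI-HBL1 (adjusted p = 0.0898) or OCI-LY10 (adjusted p = 0.239) omitted, and in a fit of the compared groups alone (adjusted p = 0.163). With CPI203 alone its change was -0.06 ± 0.10 (adjusted p = 0.735) and with IRAKi alone -0.22 ± 0.10 (adjusted p = 0.351). Of the 6 other HSPA8 probe sets 5 had a change below 0 with Combo and 1 above. Among them 3 were called lower with Combo, at -0.42, -0.43 and -0.44.

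HSPA1B and HSPA1A encode the stress-inducible HSP70, and the near identity of these genes leaves their separate values uncertain. HSPA1B read 6.48, 5.43 and 7.27 in Control, 6.25, 5.43 and 6.10 with CPI203, 6.14, 4.36 and 4.98 with IRAKi and 6.15, 4.995 and 5.33 with Combo. In OCI-LY10 the level was highest in Control and lowest with IRAKi, in OCI-LY3 the levels lay close together, and the groups overlapped. The log2 change of HSPA1B was -1.24 ± 0.32 (adjusted p = 0.13) with IRAKi and -0.90 ± 0.32 (adjusted p = 0.0565) with Combo, neither past the test, with single-line changes under IRAKi from -2.30 in OCI-LY10 to -0.34 in OCI-LY3. With Combo, a filter at the 60th percentile, limma's trend and robust estimation and the mean over probe sets called it lower, at the same log2 change. HSPA1B has no other probe set of its own, so that mean is no further reading. Spike scaling called it lower at -1.38 (adjusted p = 0.00115). HSPA1A read 5.87, 4.43 and 6.52 in Control, 5.82, 4.98 and 5.77 with CPI203, 5.92, 4.50 and 4.81 with IRAKi and 5.73, 5.16 and 5.19 with Combo. A level with IRAKi below that of Control was seen in OCI-LY10 alone, and its change with IRAKi was -0.53 ± 0.34 (adjusted p = 0.51). Both probe sets that the annotation assigns to the pair together gave lower IRAKi than Control means, with untested differences of -0.91 and -1.03. HSPA6, the strictly inducible HSP70 gene of heat-stressed cells, did not exceed the filter level on any array, its highest value being 4.15 in Control OCI-LY3. The probe set that the annotation gives to HSPA6 and HSPA7 together exceeded this level of 4.20 on some arrays and not on others. It read 4.58, 4.73 and 5.91 in Control and 3.90, 3.93 and 5.07 with CPI203. With IRAKi it read 4.13, 4.52 and 5.22, and with Combo 4.13, 4.24 and 4.32. Its Combo levels lay below every Control level, with an untested mean difference of -0.85. These Combo levels are near the filter level, so the low signal limits the difference.

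HSP90AA1, the inducible HSP90 gene, read 12.71, 12.60 and 12.48 in Control, 12.69, 12.53 and 12.54 with CPI203, 12.50, 12.32 and 12.19 with IRAKi and 12.67, 12.67 and 12.44 with Combo. Each line was lowest with IRAKi, while Control and Combo had equal means of 12.59. The change with IRAKi was -0.26 ± 0.10 (adjusted p = 0.267). HSP90AB1, the constitutive form, had a change of -0.09 ± 0.12 (adjusted p = 0.777) with IRAKi and 0.07 ± 0.12 (adjusted p = 0.699) with Combo. HSPH1, an exchange factor that recharges HSP70 with ATP, had -0.15 ± 0.12 (adjusted p = 0.606) and -0.03 ± 0.12 (adjusted p = 0.901) in the same comparisons. The further tested members of the group were HSPA1L, HSPA2, HSPA4, HSPA4L and HSPA12A, and none was called in any comparison. Of the 3 other HSPA4 probe sets, 1 was called lower with CPI203, at -0.89 (adjusted p = 0.0106), where this and later p-values of single probe sets are adjusted over all probe sets tested.

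**Figure D3:**
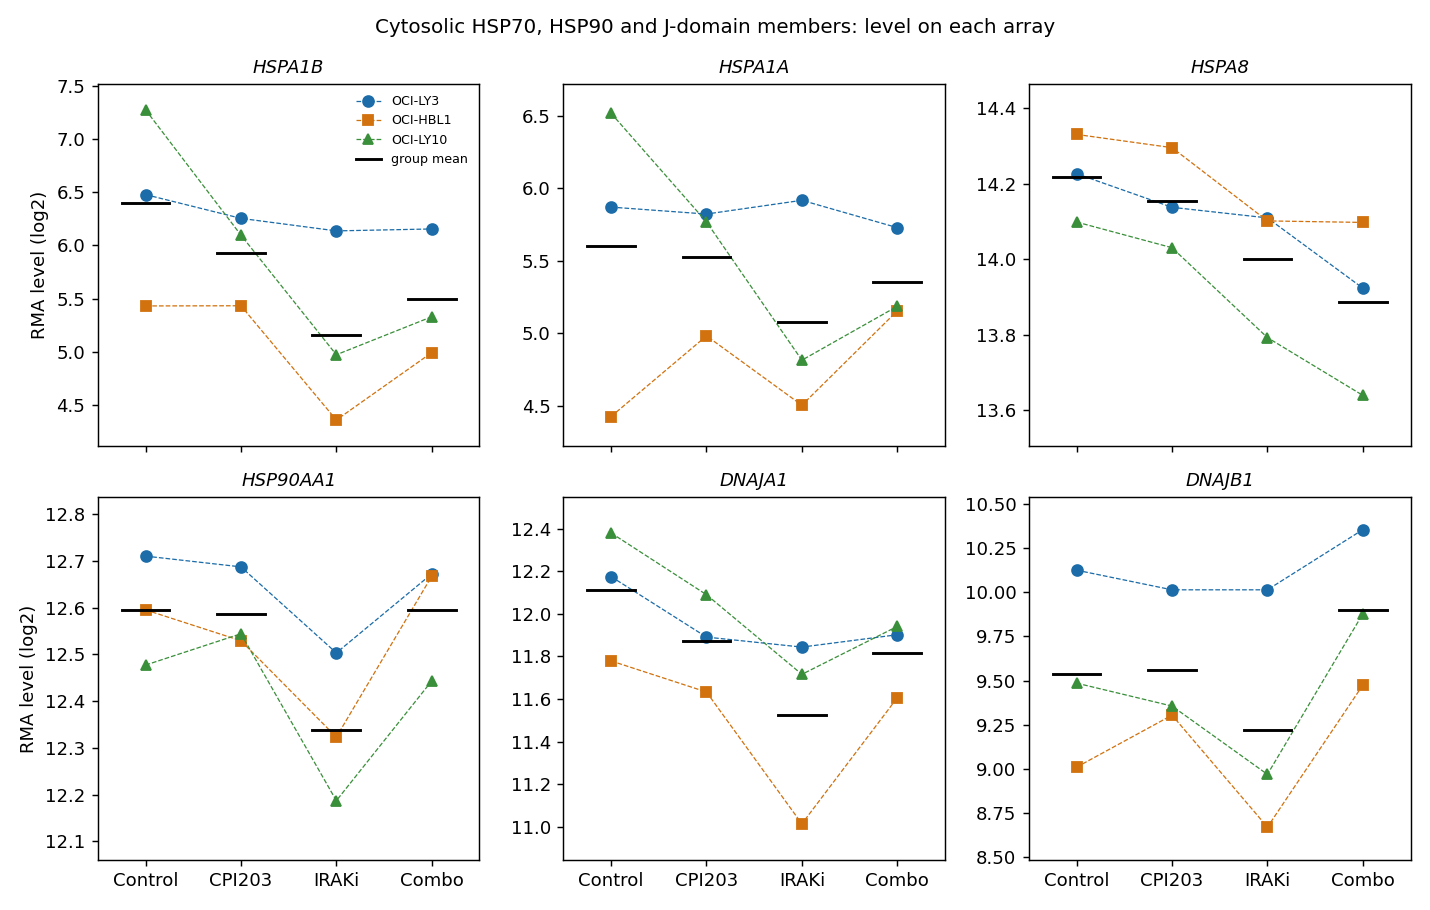
RMA level (log2, vertical axis, a separate range in each panel) of 6 cytosolic members on each array, by group, with 1 symbol for each cell line and a bar at the group mean. The gap in HSPA1B differed by line, from 7.27 in Control to 4.98 with IRAKi in OCI-LY10 and from 6.48 to 6.14 in OCI-LY3, and the HSPA8 levels with Combo, 13.64 to 14.10, lie below those of Control in each line.

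Cytosolic J-domain proteins bring clients to HSP70. Of 10 tested members 1 rose and 3 fell with Combo, 1 rose and 2 fell with CPI203 and none was called with IRAKi. Over all genes tested, 32.1% were called with Combo and 13.1% with CPI203. Under spike scaling 1 rose and 7 fell with Combo, and none rose and 2 fell with CPI203. DNAJB4, a partner of HSP70 in protein quality control, showed the highest rise of all members with Combo. It read 7.04, 6.07 and 7.47 in Control, 8.18, 6.77 and 8.26 with CPI203, 7.40, 6.50 and 7.92 with IRAKi and 8.93, 7.69 and 9.04 with Combo. In each line Combo was the highest level and Control the lowest, and Combo did not overlap Control. DNAJB4 rose by 1.69 ± 0.13 (adjusted p = 5.91e-05) with Combo and by 0.87 ± 0.13 (adjusted p = 0.00381) with CPI203, with IRAKi at 0.41 ± 0.13 (adjusted p = 0.181). Its other probe sets gave 1.67 and 1.69 with Combo. With CPI203 the change was 0.74 (adjusted p = 0.0576) with OCI-LY3 omitted, 0.92 (adjusted p = 0.0529) with OCI-LY10 omitted and 0.57 (adjusted p = 0.0859) under spike scaling, past the threshold in none of these.

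DNAJA4, a J-domain protein of the same type as DNAJA1, read 6.92, 8.86 and 8.43 in Control, 5.38, 8.54 and 7.44 with CPI203, 5.60, 8.33 and 7.79 with IRAKi and 4.97, 8.54 and 7.01 with Combo. The lines differed, with OCI-LY3 far lower under every treatment and OCI-HBL1 moving little, and the groups overlapped. DNAJA4 changed by -0.95 ± 0.26 (adjusted p = 0.04) with CPI203 and -1.23 ± 0.26 (adjusted p = 0.00547) with Combo. With CPI203 the call was lost with OCI-LY3 (adjusted p = 0.262) or OCI-LY10 (adjusted p = 0.206) omitted, in a fit of the compared groups alone (adjusted p = 0.0715) and with the mean of its probe sets (-0.39, adjusted p = 0.175). With Combo it was lost with OCI-LY3 (adjusted p = 0.0852) or OCI-LY10 (adjusted p = 0.0705) omitted and in a fit of the compared groups alone (adjusted p = 0.0575). Its other probe set, of a lower mean level, was called in neither comparison (0.17 with CPI203 and -0.30 with Combo).

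DNAJC7, whose product binds both HSP70 and HSP90, read 10.65, 10.08 and 10.32 in Control, 9.82, 9.48 and 9.27 with CPI203, 10.19, 9.84 and 9.86 with IRAKi and 9.67, 9.61 and 8.89 with Combo. The CPI203 and Combo levels lay below every Control level. DNAJC7 changed by -0.83 ± 0.16 (adjusted p = 0.0122) with CPI203 and -0.97 ± 0.16 (adjusted p = 0.00183) with Combo. The CPI203 call was lost with OCI-LY3 (adjusted p = 0.134) or OCI-LY10 (adjusted p = 0.0802) omitted.

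DNAJA1, a farnesylated partner of HSP70, read 12.18, 11.78 and 12.38 in Control, 11.89, 11.63 and 12.09 with CPI203, 11.84, 11.01 and 11.72 with IRAKi and 11.90, 11.61 and 11.94 with Combo. IRAKi gave the lowest level in each line, and the groups overlapped. Its change was -0.59 ± 0.13 (adjusted p = 0.102) with IRAKi and -0.29 ± 0.13 (adjusted p = 0.113) with Combo, not past the test, from a probe set whose probes can be shared between transcripts. DNAJB1, the main inducible J-domain partner of HSP70, read 10.12, 9.01 and 9.49 in Control, 10.01, 9.30 and 9.36 with CPI203, 10.01, 8.67 and 8.97 with IRAKi and 10.35, 9.47 and 9.88 with Combo. Combo gave the highest level in every line, yet the groups overlapped and the changes of -0.32 ± 0.14 (adjusted p = 0.316) with IRAKi and 0.36 ± 0.14 (adjusted p = 0.0799) with Combo did not pass. With Combo it was called higher by the mean of its probe sets at 0.41 (adjusted p = 0.0434), by limma's trend and robust estimation at 0.36 (adjusted p = 0.0373) and in 1 of its 2 other probe sets at 0.49 (adjusted p = 0.0406). DNAJA2 fell with Combo by 0.34 on the log2 scale (adjusted p = 0.0394), a call lost with OCI-LY3 (adjusted p = 0.0892), OCI-HBL1 (adjusted p = 0.216) or OCI-LY10 (adjusted p = 0.217) omitted. DNAJB2, DNAJB5, DNAJB6 and DNAJB13 were called in no comparison. For DNAJB6, which keeps proteins from aggregating, the probe sets disagreed: the chosen one had -0.37 ± 0.15 (adjusted p = 0.0942) with Combo, and the 3 others were called higher, at 0.57 (adjusted p = 0.0391), 0.74 (adjusted p = 0.00324) and 0.64 (adjusted p = 0.00411). The mean of its probe sets was called higher with Combo, at 0.40 (adjusted p = 0.0265), while spike scaling of the chosen set called it lower. For DNAJB2 the chosen set had 0.49 ± 0.21 (adjusted p = 0.104) with Combo, and the 2 others that were tested were called higher, at 0.70 (adjusted p = 0.0104) and 0.61 (adjusted p = 0.00989).

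All 12 members of the endoplasmic reticulum (ER) were tested. With Combo 5 rose and 3 fell, against 15.4% risen and 16.7% fallen over all genes tested. With CPI203 1 rose and 1 fell, against 13.1% of all genes called, and none was called with IRAKi. The members that rose were DNAJC1, DNAJC3, DNAJB9, HSPA13 and DNAJC16, and those that fell were DNAJC14, DNAJC10 and DNAJB12. Under spike scaling 1 rose, DNAJC1, and 5 fell with Combo, and 1 rose and 2 fell with CPI203. There DNAJC16 stood at -0.11 (adjusted p = 0.649), its direction turned. HSPA5, the ER form of HSP70 known as BiP, had changes of 0.003 ± 0.22 (adjusted p = 0.994) with CPI203, 0.03 ± 0.22 (adjusted p = 0.974) with IRAKi and 0.25 ± 0.22 (adjusted p = 0.429) with Combo. HSP90B1, the ER form of HSP90, had -0.08 ± 0.10 (adjusted p = 0.6) with Combo, and spike scaling called it lower.

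DNAJC1, an ER membrane protein that recruits HSPA5 through its J domain, read 7.53, 7.88 and 7.96 in Control, 8.82, 8.87 and 8.97 with CPI203, 8.17, 7.99 and 7.94 with IRAKi and 8.71, 8.80 and 9.22 with Combo. The CPI203 and Combo levels lay above every level of Control and IRAKi. DNAJC1 rose by 1.096 ± 0.15 (adjusted p = 0.00296) with CPI203 and by 1.12 ± 0.15 (adjusted p = 0.000596) with Combo, and both calls remained without each line in turn. Under spike scaling the rise with Combo was 0.64 (adjusted p = 0.0251).

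DNAJC3, a partner of HSPA5 in the ER lumen that the unfolded protein response raises, read 7.96, 8.67 and 7.64 in Control, 8.19, 9.19 and 7.96 with CPI203, 8.05, 9.10 and 8.14 with IRAKi and 8.77, 9.33 and 8.85 with Combo. Combo was highest in every line, above all Control levels. DNAJC3 rose by 0.89 ± 0.15 (adjusted p = 0.00187) with Combo, while its changes with CPI203 (0.36 ± 0.15, adjusted p = 0.154) and IRAKi (0.34 ± 0.15, adjusted p = 0.323) did not pass. Under spike scaling the Combo value was 0.41 (adjusted p = 0.111). DNAJB9, which restrains the stress sensor IRE1 together with HSPA5, read 8.60, 8.27 and 8.29 in Control, 8.46, 8.87 and 8.29 with CPI203, 8.41, 9.12 and 8.34 with IRAKi and 9.17, 9.42 and 8.88 with Combo. All Combo levels lay above all Control levels, and with each compound alone OCI-HBL1 stood farther above its Control level than the other lines. DNAJB9 rose by 0.77 ± 0.18 (adjusted p = 0.00826) with Combo, a call lost with OCI-LY10 (adjusted p = 0.0561) omitted and under spike scaling (0.29, adjusted p = 0.287).

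HSPA13, an HSP70-type protein of the microsomes, read 9.01, 9.49 and 8.69 in Control, 9.12, 9.53 and 8.83 with CPI203, 9.40, 10.18 and 9.13 with IRAKi and 9.64, 10.08 and 9.34 with Combo. Each line was higher with Combo than in Control by a like amount, and the groups overlapped because the lines differ. HSPA13 rose by 0.62 ± 0.11 (adjusted p = 0.00231) with Combo and had 0.51 ± 0.11 (adjusted p = 0.0991) with IRAKi. DNAJC16 rose by 0.37 ± 0.11 (adjusted p = 0.0258), a call lost with OCI-LY3 (adjusted p = 0.262), OCI-HBL1 (adjusted p = 0.111) or OCI-LY10 (adjusted p = 0.0696) omitted.

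DNAJC14, an ER membrane protein that takes part in the export of receptors, read 8.77, 8.55 and 8.51 in Control, 8.32, 7.96 and 7.69 with CPI203, 8.93, 8.77 and 8.29 with IRAKi and 7.68, 7.70 and 6.91 with Combo. The CPI203 and Combo levels lay below every Control level, and IRAKi levels stayed near those of Control. DNAJC14 changed by -0.62 ± 0.14 (adjusted p = 0.0221) with CPI203 and -1.18 ± 0.14 (adjusted p = 0.000362) with Combo. The CPI203 call was lost with OCI-LY3 (adjusted p = 0.133), OCI-HBL1 (adjusted p = 0.0803) or OCI-LY10 (adjusted p = 0.134) omitted. Its other probe set, of a lower level, had -0.53 with Combo and was not called. DNAJC10, a disulfide reductase that prepares proteins for degradation, changed by -0.54 ± 0.12 (adjusted p = 0.00759) with Combo, and the call was lost with OCI-LY3 (adjusted p = 0.0648) or OCI-LY10 (adjusted p = 0.0764) omitted. Of its 5 other probe sets 1 was called lower with Combo (-0.45, adjusted p = 0.0467 over all probe sets), 2 had a change above 0, and with the mean of its probe sets the value was -0.16 (adjusted p = 0.234). DNAJB12, an ER membrane partner of cytosolic HSP70, changed by -0.44 ± 0.14 (adjusted p = 0.0362) and lost its call with OCI-LY3 (adjusted p = 0.0945), OCI-HBL1 (adjusted p = 0.0911) or OCI-LY10 (adjusted p = 0.251) omitted. DNAJB11 and DNAJB14 were not called in any comparison.

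**Figure D4:**
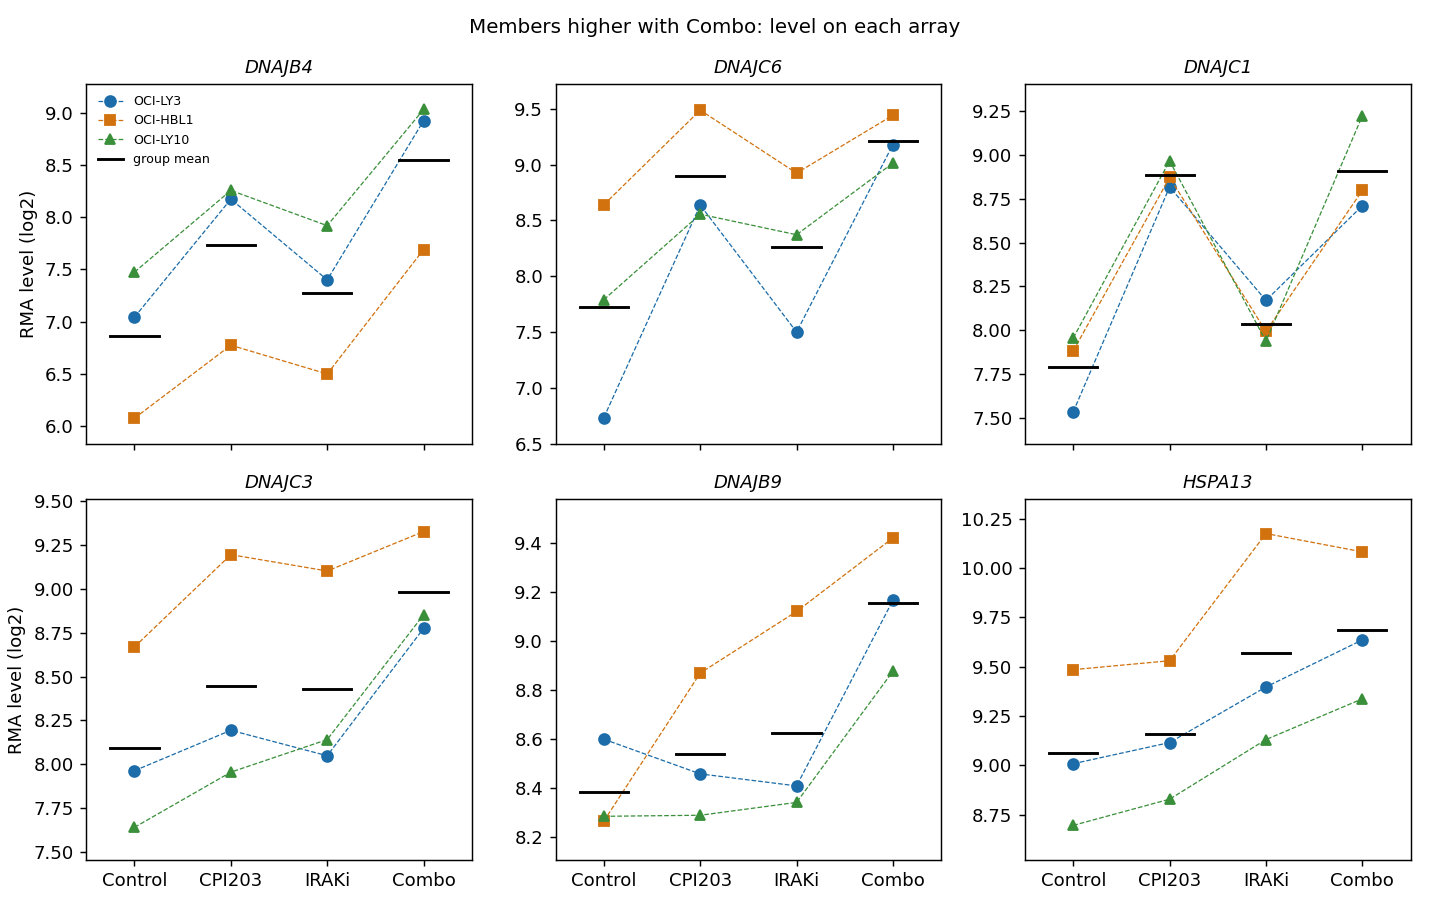
RMA level (log2, vertical axis, a separate range in each panel) of 6 members that rose with Combo on each array, by group, with 1 symbol for each cell line and a bar at the group mean. DNAJC1 separates CPI203 and Combo (8.71 to 9.22) from Control and IRAKi (7.53 to 8.17), whereas DNAJB4 rises within each line and the lines keep their distance.

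Among the 8 mitochondrial members none rose and 3 fell with Combo (8 under spike scaling), and none was called with CPI203 or IRAKi. Over all genes tested, 15.4% rose and 16.7% fell with Combo. All 8 had a change below 0 with Combo, from -0.99 to -0.10, with a median of -0.28 against -0.003 for all genes. DNAJC30, an inner membrane protein linked to the respiratory chain, read 7.52, 7.30 and 7.37 in Control, 7.71, 7.38 and 7.48 with CPI203, 7.35, 6.53 and 7.37 with IRAKi and 6.36, 6.19 and 6.69 with Combo. Combo lay below every Control and CPI203 level, and with IRAKi alone OCI-HBL1 was the lower line. DNAJC30 changed by -0.99 ± 0.17 (adjusted p = 0.00187) with Combo, 0.12 ± 0.17 (adjusted p = 0.678) with CPI203 and -0.32 ± 0.17 (adjusted p = 0.413) with IRAKi. Its probe sets disagreed, with -0.82 and -0.20 from the other sets with Combo, of which the first was called.

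DNAJC19, a subunit of the protein import motor of the inner membrane, read 8.90, 9.44 and 8.997 in Control, 8.85, 9.25 and 8.61 with CPI203, 8.68, 9.59 and 8.71 with IRAKi and 8.41, 9.01 and 8.21 with Combo. Combo was the lowest level in each line, and the groups overlapped. DNAJC19 changed by -0.57 ± 0.13 (adjusted p = 0.00738) with Combo, a call lost with OCI-LY3 (adjusted p = 0.0521) or OCI-LY10 (adjusted p = 0.108) omitted. DNAJC11, which takes part in shaping the cristae, changed by -0.50 ± 0.12 (adjusted p = 0.00895), a call lost with OCI-LY3 (adjusted p = 0.0608) or OCI-LY10 (adjusted p = 0.0975) omitted. The chosen probe sets of the central folding machinery had changes with Combo that did not pass, -0.10 ± 0.12 (adjusted p = 0.553) for HSPA9, the HSP70 of the matrix, -0.24 ± 0.10 (adjusted p = 0.118) for HSPD1, the chaperonin, and -0.22 ± 0.11 (adjusted p = 0.161) for its lid HSPE1. Limma's trend and robust estimation called HSPD1 and HSPE1 lower with Combo, and spike scaling called all 3 lower. The 2 other HSPE1 probe sets were called lower with Combo, at -0.70 (adjusted p = 0.00376) and -0.61 (adjusted p = 0.0223), and with CPI203, at -0.82 (adjusted p = 0.00699) and -0.62 (adjusted p = 0.0452). The mean of the HSPE1 probe sets was called lower as well, at -0.51 (adjusted p = 0.00579) with Combo and -0.51 (adjusted p = 0.0154) with CPI203. DNAJA3 and DNAJC15 were not called in any comparison, although the other DNAJC15 probe set was called lower with CPI203, at -0.66 (adjusted p = 0.0173).

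Of 7 members that act at the ribosome, the spliceosome or on histones, 2 rose and 3 fell with Combo. The background over all genes tested was 15.4% risen and 16.7% fallen. Under spike scaling none of the 7 rose and 3 fell. DNAJC17, which associates with the spliceosome, had the lowest log2 change of all members. It read 5.90, 6.07 and 6.75 in Control, 4.74, 4.17 and 5.29 with CPI203, 5.65, 4.55 and 5.29 with IRAKi and 4.50, 4.13 and 4.20 with Combo. Control levels lay above every treated level, also with IRAKi, where the change of -1.08 ± 0.26 (adjusted p = 0.112) did not pass. DNAJC17 changed by -1.51 ± 0.26 (adjusted p = 0.00722) with CPI203 and -1.96 ± 0.26 (adjusted p = 0.000545) with Combo. The gene is lowly expressed, exceeding the filter level on 9 of 12 arrays. The CPI203 call was lost with OCI-HBL1 (adjusted p = 0.0701) omitted.

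DNAJC2 and HSPA14 form a chaperone pair on the ribosome. DNAJC2 read 10.86, 11.41 and 11.58 in Control, 10.27, 10.83 and 11.14 with CPI203, 10.91, 11.24 and 11.42 with IRAKi and 9.66, 10.45 and 10.64 with Combo. Combo was lowest and below every Control level, CPI203 lay between, and IRAKi stayed within 0.17 of Control in each line. DNAJC2 changed by -1.03 ± 0.12 (adjusted p = 0.000285) with Combo and -0.54 ± 0.12 (adjusted p = 0.0188) with CPI203, the latter lost with OCI-LY3 (adjusted p = 0.122), OCI-HBL1 (adjusted p = 0.119) or OCI-LY10 (adjusted p = 0.115) omitted. HSPA14 read 9.78, 10.60 and 10.33 in Control, 9.61, 10.54 and 10.04 with CPI203, 9.46, 10.38 and 9.77 with IRAKi and 9.28, 10.18 and 9.39 with Combo. Combo was lowest in each line, with overlap between groups. HSPA14 changed by -0.62 ± 0.12 (adjusted p = 0.00358) with Combo, a call lost with OCI-LY10 (adjusted p = 0.0638) omitted. Of its 3 other probe sets 1 was called lower with Combo, at -0.52 (adjusted p = 0.0172). Another went the other way, at 0.22 (adjusted p = 0.275).

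DNAJC9, a chaperone for histones, rose by 0.55 ± 0.12 (adjusted p = 0.00818) with Combo, a call lost with OCI-LY3 (adjusted p = 0.107) or OCI-LY10 (adjusted p = 0.0733) omitted and under spike scaling (adjusted p = 0.801). DNAJC24, needed to make diphthamide on the elongation factor EEF2, rose by 0.45 ± 0.11 (adjusted p = 0.0255) with CPI203 and 0.41 ± 0.11 (adjusted p = 0.0175) with Combo. The CPI203 call was lost with OCI-LY3 (adjusted p = 0.17), OCI-HBL1 (adjusted p = 0.0987) or OCI-LY10 (adjusted p = 0.189) omitted, and the Combo call with OCI-LY3 (adjusted p = 0.0901), OCI-HBL1 (adjusted p = 0.0593) or OCI-LY10 (adjusted p = 0.2) omitted. Neither remained under spike scaling, at 0.15 (adjusted p = 0.637) and -0.075 (adjusted p = 0.769), the latter with its direction turned. DNAJC8 and DNAJC21 were called in no comparison.

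**Figure D5:**
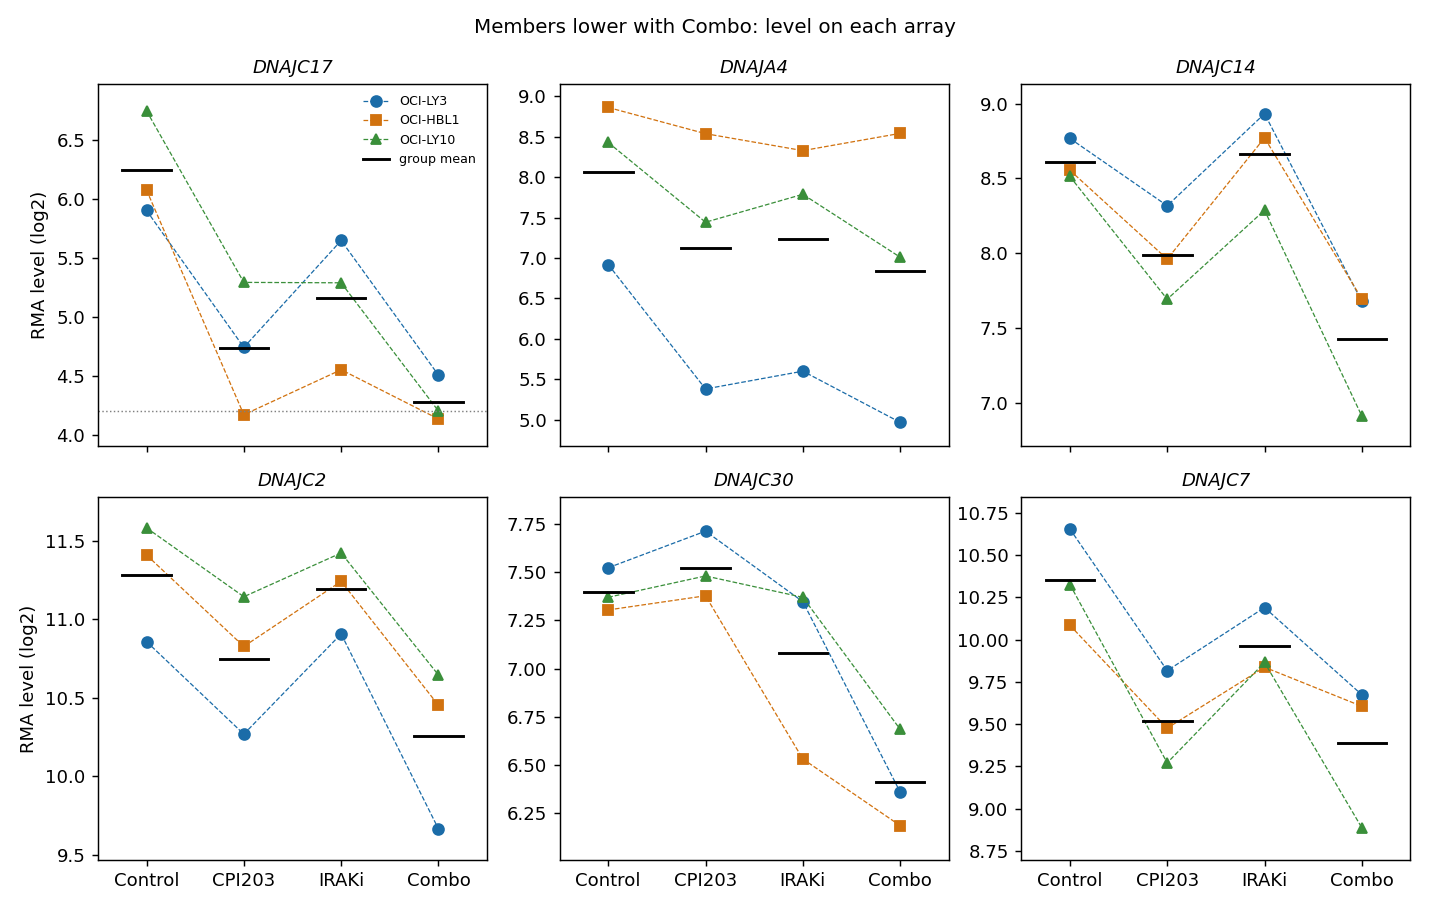
RMA level (log2, vertical axis, a separate range in each panel) of 6 members that fell with Combo on each array, by group, with 1 symbol for each cell line, a bar at the group mean and a dotted line at the filter level of 4.20 where it falls within the panel. DNAJC17, DNAJC14, DNAJC2, DNAJC30 and DNAJC7 have all Combo levels below all Control levels, and DNAJA4 in OCI-HBL1 moved from 8.86 to 8.54.

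Of 5 members of vesicle and endosome traffic, 2 rose with CPI203 and 1 rose with Combo, against 6.92% and 15.4% of all genes tested. Under spike scaling DNAJC6 alone rose in both. DNAJC6, the auxilin that uncoats clathrin vesicles with HSPA8, read 6.73, 8.64 and 7.79 in Control, 8.64, 9.49 and 8.56 with CPI203, 7.50, 8.92 and 8.37 with IRAKi and 9.18, 9.44 and 9.01 with Combo. The rise was widest in OCI-LY3, the line with the lowest Control level, and Combo lay above every Control level. DNAJC6 rose by 1.17 ± 0.27 (adjusted p = 0.0237) with CPI203 and 1.49 ± 0.27 (adjusted p = 0.00282) with Combo. The CPI203 call was lost with OCI-LY3 (adjusted p = 0.0819), OCI-HBL1 (adjusted p = 0.0724) or OCI-LY10 (adjusted p = 0.104) omitted. DNAJC13, an endosomal protein, read 5.53, 6.11 and 5.90 in Control, 6.20, 6.83 and 6.37 with CPI203, 6.12, 6.41 and 6.002 with IRAKi and 6.24, 6.07 and 6.07 with Combo. CPI203 levels lay above every Control level, and with Combo OCI-HBL1 stood near its Control level. DNAJC13 rose by 0.61 ± 0.16 (adjusted p = 0.0339) with CPI203, a call lost with OCI-LY3 (adjusted p = 0.133), OCI-HBL1 (adjusted p = 0.119) or OCI-LY10 (adjusted p = 0.15) omitted and under spike scaling (adjusted p = 0.28), and had 0.28 ± 0.16 (adjusted p = 0.219) with Combo. DNAJC5, DNAJC5B and DNAJC5G, the cysteine string proteins, were called in no comparison, and 1 of the 3 other DNAJC5 probe sets was called higher with Combo, at 0.58 (adjusted p = 0.00822).

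The remaining members include 4 tested small heat shock proteins, of which none was called in any comparison, though spike scaling called HSPB1 lower with Combo. HSPB1, which holds unfolding proteins without ATP, read 5.17, 6.91 and 9.28 in Control, 4.91, 7.58 and 9.09 with CPI203, 4.61, 7.03 and 8.64 with IRAKi and 4.53, 7.27 and 9.17 with Combo. The lines differed far more than the treatments, and its change with IRAKi was -0.36 ± 0.20 (adjusted p = 0.426). HSPB2, HSPB6 and HSPB7 had low levels throughout. Among 5 further tested J-domain genes 2 rose and 1 fell with Combo, where 15.4% of all genes tested rose and 16.7% fell. Under spike scaling none of the 5 rose and 2 fell. DNAJC12, which binds aromatic amino acid hydroxylases, read 5.33, 8.86 and 7.90 in Control, 5.30, 8.29 and 7.37 with CPI203, 4.996, 8.59 and 7.35 with IRAKi and 4.82, 8.06 and 6.89 with Combo. Combo was the lowest level in each line, with OCI-LY3 far below the other lines throughout. DNAJC12 changed by -0.77 ± 0.14 (adjusted p = 0.00256), a call lost with OCI-LY10 (adjusted p = 0.056) omitted. DNAJC4 rose by 0.47 ± 0.11 (adjusted p = 0.0105) and DNAJC25 by 0.53 ± 0.17 (adjusted p = 0.0441), the latter in 2 of 3 lines. Without OCI-LY3 both calls were lost (adjusted p = 0.105 and adjusted p = 0.328), and without OCI-LY10 as well (adjusted p = 0.0743 and adjusted p = 0.269). Without OCI-HBL1 the change of DNAJC25 was 0.80 (adjusted p = 0.00829) and without OCI-LY3 it was 0.35. Both calls were also lost under spike scaling, at -0.019 (adjusted p = 0.942) for DNAJC4, its direction turned, and 0.042 (adjusted p = 0.865) for DNAJC25.

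Elsewhere too the probe sets of 1 gene gave unlike values. When probe sets were averaged for each gene, 12 of the 51 called values moved by over 1.5 times and none turned. Among them, with Combo against Control, were DNAJA2 at -0.21 (adjusted p = 0.139), DNAJA4 at -0.76 (adjusted p = 0.00855), DNAJC11 at -0.84 (adjusted p = 0.00124), DNAJC16 at 0.17 (adjusted p = 0.228), DNAJC4 at 0.25 (adjusted p = 0.0477) and HSPA14 at -0.33 (adjusted p = 0.0261). With CPI203 DNAJC6 stood at 0.74 (adjusted p = 0.0224).

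What the second compound added was read from Combo against each compound alone. Against CPI203, 2 members rose and 2 fell (6.35% of members, against 4.66% of all genes tested, of which 1.96% rose and 2.71% fell), and under spike scaling 1 fell and none rose. DNAJB4 rose by 0.82 ± 0.13 (adjusted p = 0.0123) and HSPA13 by 0.53 ± 0.11 (adjusted p = 0.0311). DNAJC30 changed by -1.11 ± 0.17 (adjusted p = 0.0116) and DNAJC2 by -0.49 ± 0.12 (adjusted p = 0.0477). All 4 moved the same way in each line. The other DNAJC30 probe sets gave -0.34 (adjusted p = 0.546) and 0.19 (adjusted p = 0.738), the second in the opposite direction. With the mean of probe sets the calls of DNAJC30, at -0.42 (adjusted p = 0.192), and HSPA13, at 0.41 (adjusted p = 0.162), were lost. Among uncalled members, 1 other probe set each of HSPA14 and HSPA4 was called higher, at 0.65 (adjusted p = 0.0361) and 1.03 (adjusted p = 0.0143). For DNAJB12, 1 other set was called lower, at -0.71 (adjusted p = 0.0405), as was the mean of its sets, at -0.43 (adjusted p = 0.0416). The calls of DNAJB4, HSPA13, DNAJC30 and DNAJC2 were each lost on leaving out any 1 of the lines, at adjusted p from 0.0706 to 0.261. The DNAJC2 call was also lost without the OCI-LY10 IRAKi array (adjusted p = 0.0555), whose non-specific control probe sets read 4.00 against 3.64 to 3.79 elsewhere.

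Against IRAKi, where label time differs too, 5 members rose and 7 fell (19.0% of members, against 18.7% of all genes tested, of which 8.21% rose and 10.5% fell). Under spike scaling 1 rose and 8 fell. DNAJB4 rose by 1.28 ± 0.13 (adjusted p = 0.000591), DNAJC1 by 0.88 ± 0.15 (adjusted p = 0.00442) and DNAJC6 by 0.95 ± 0.27 (adjusted p = 0.0394). DNAJC14 changed by -1.23 ± 0.14 (adjusted p = 0.000948) and DNAJC2 by -0.94 ± 0.12 (adjusted p = 0.00136). The calls of DNAJB4, DNAJC14 and DNAJC2 remained without each line in turn, and that of DNAJC1 was lost with OCI-LY10 (adjusted p = 0.068) omitted. DNAJB1, the inducible partner of HSP70, rose by 0.68 ± 0.14 (adjusted p = 0.0101), from 10.01, 8.67 and 8.97 with IRAKi to 10.35, 9.47 and 9.88 with Combo. This call was lost with OCI-HBL1 (adjusted p = 0.0643) or OCI-LY10 (adjusted p = 0.128) omitted. DNAJC3 rose by 0.55 ± 0.15, and DNAJC17, DNAJC30, DNAJC7, DNAJC10 and DNAJC19 changed by between -0.88 and -0.45. Their calls were lost without 1 or more lines, and those of DNAJC3, DNAJC6, DNAJC7, DNAJC17, DNAJC19 and DNAJC30 also without the OCI-LY10 IRAKi array, at adjusted p from 0.0637 to 0.132. The DNAJC10 value was -0.099 (adjusted p = 0.508) with the mean of its probe sets, and of its 5 other sets 1 was called lower, at -0.47 (adjusted p = 0.0427), and 1 higher, at 0.52 (adjusted p = 0.0416). That of DNAJC17 was -0.55 (adjusted p = 0.0806) with the mean. Among uncalled members, the 3 other DNAJB6 probe sets and 1 other DNAJB2 set were called higher, by 0.64 to 1.13, as was the other HSP90AA1 set, at 0.60 (adjusted p = 0.0184). So were other sets of DNAJB9, at 0.68 (adjusted p = 0.0417) and 0.77 (adjusted p = 0.028), and of DNAJC9, at 0.71 (adjusted p = 0.0245). Other sets of DNAJA1, at 0.44 (adjusted p = 0.032), and HSPH1, at 0.48 (adjusted p = 0.0376), were called higher too. The other DNAJC15 set was called lower, at -0.67 (adjusted p = 0.0112). The mean of probe sets called DNAJB6, DNAJB9, DNAJC9 and HSP90AA1 higher and DNAJB12 and DNAJC15 lower.

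No member departed from the sum of the single log2 changes at the threshold (the interaction term of limma, background 0.00762% or 1 gene). At an unadjusted p below 0.05, 8 of the 63 tested members did, against 1085 of the 13120 genes tested. The departure of DNAJB1 was 0.67 ± 0.20 (adjusted p = 0.456) and that of DNAJA1 0.53 ± 0.18 (adjusted p = 0.5). Both had IRAKi as the lowest group and a positive departure in all 3 lines.

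Members whose window holds the shorter heat shock element motif were set beside those without it. With IRAKi, 15 of 18 tested holders lay below 0, with a median log2 change of -0.23, against -0.03 over 39 tested members without the motif and -0.001 for all genes. The holders are not all separate, as HSPA1A and HSPA1L share a match and HSPA1B is near identical to HSPA1A. Each of these was counted and lay below 0 with IRAKi. None of either group was called with IRAKi. Of the members without it, 22 of 39 lay below 0 with IRAKi. With Combo the holders' median was -0.18, with 2 risen (DNAJB4 and DNAJC6) and 2 fallen (DNAJA4 and HSPA8), and the members without the motif had a median of -0.05, with 7 risen and 11 fallen. All 6 tested holders of the longer form had a change below 0 with IRAKi, from -0.59 for DNAJA1 to -0.09 for HSP90AB1, as did 31 of 51 tested members without that form. These shares were not tested, and the share below 0 was not counted over all genes or over other genes with the motif.

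The genes that work with the members were counted by list, and their values under spike scaling were added after the first results were seen. The background over all genes tested was 15.4% risen and 16.7% fallen with Combo, and 6.92% and 6.21% with CPI203. With Combo 5 of 20 tested cochaperones of HSP70 and HSP90 rose and 4 fell, with a median of 0.02, and with CPI203 3 rose. Under spike scaling none rose and 8 fell with Combo, and none rose and 1 fell with CPI203. BAG3, which directs HSP70 clients to autophagy, rose by 0.65 ± 0.16 (adjusted p = 0.026) with CPI203 and 1.01 ± 0.16 (adjusted p = 0.00122) with Combo. STUB1, the ubiquitin ligase bound to HSP70 and HSP90, rose by 0.42 ± 0.13 (adjusted p = 0.0319) with Combo, while CHORDC1, an HSP90 partner, changed by -0.70 ± 0.16 (adjusted p = 0.00766) and FKBP4 by -0.52 ± 0.16 (adjusted p = 0.0358). Under spike scaling BAG3 with Combo stood at 0.52 (adjusted p = 0.0547) and STUB1 at -0.068 (adjusted p = 0.802), the latter turned in direction. Of 14 chaperonin and prefoldin subunits none rose and 4 fell with Combo, PFDN1 among them at -0.83 ± 0.11 (adjusted p = 0.000692), and under spike scaling 12 fell. Of 12 mitochondrial chaperones and proteases 1 rose, SPG7, and 5 fell, among them HTRA2 at -0.92 ± 0.14 (adjusted p = 0.00119) and CLPP at -0.89 ± 0.17 (adjusted p = 0.00338). Under spike scaling none of the 12 rose and 8 fell. None of these lists had a call with IRAKi.

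Of 10 tested HSF1 partners and other heat shock genes 2 rose and 1 fell with Combo, and under spike scaling 1 rose, IER5, and 6 fell. IER5, a feedback activator of HSF1, rose by 0.59 ± 0.16 (adjusted p = 0.0352) with CPI203 and 1.14 ± 0.16 (adjusted p = 0.000656) with Combo. In the list of ER folding and unfolded protein response genes 3 of 21 rose with Combo and 1 fell, and under spike scaling none rose and 7 fell. HERPUD1, which serves the degradation of ER proteins, rose by 0.68 ± 0.16 (adjusted p = 0.00981), the stress factor DDIT3 by 0.76 ± 0.25 (adjusted p = 0.0432) and its regulator ATF4 by 0.36 ± 0.10 (adjusted p = 0.0249), and SDF2L1, an ER partner of DNAJB11, changed by -0.81 ± 0.20 (adjusted p = 0.0124). Spike scaling left HERPUD1 at 0.19 (adjusted p = 0.461), DDIT3 at 0.28 (adjusted p = 0.386) and ATF4 at -0.13 (adjusted p = 0.609), the last turned in direction. Among 3 tested J-domain genes named outside DNAJ, GAK, the ubiquitous auxilin, rose by 0.58 ± 0.15 (adjusted p = 0.0132) and HSCB of iron-sulfur cluster assembly, also counted among the mitochondrial genes, changed by -0.40 ± 0.12 (adjusted p = 0.0303). The GAK value under spike scaling was 0.096 (adjusted p = 0.729).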

How the data were processed

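Total RNA from 3 cell lines under 4 treatments was hybridised to 12 arrays. The deposited values are log2 levels per probe set, which the authors made with RMA in Affymetrix Expression Console 1.1, per the submitters' processing notes. RMA corrects background, quantile-normalizes arrays and summarises probes. For the probe library and genome build, the sources used here give nothing. Symbols came from the array annotation, and 99.7% matched the reference gene table. Of 49386 probe sets, those with 1 gene were used.

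All 12 arrays entered 1 limma fit (limma 3.58.1, R 4.3.3; lmFit, contrasts.fit, eBayes) with treatment and cell line as terms, 6 residual and 3.66 prior degrees of freedom. Tests were two-sided, adjusted by Benjamini-Hochberg over 13120 genes and called below 0.05. Errors are moderated SEs. Single-line changes compare 1 array with 1 array and were not tested. The number of arrays limits the precision. Same-numbered arrays come from the same cell line, and their deviations correlated at 0.819 to 0.907, so the line is the replicate block.

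Members, lists, motifs and role groups were chosen with earlier results of these data known, and no list or role group was tested. Described in full are 17 members set by role and, in each comparison, up to 12 called members that moved one way in all lines with the largest change. Further called members are named to account for every call. Alternatives used the mean over probe sets, each probe set singly, no filter or a filter at a level of 5.70, median centring, poly-A scaling over 24 probe sets, trend and robust eBayes, no replicate block, only the groups compared, each line left out, and the OCI-LY10 IRAKi array left out. The test was checked on simulated data. Motifs were searched in RefSeq windows of GRCh38.p14 with Python 3.11.15. The R package data.table was version 1.17.8. Figures were drawn with matplotlib 3.10.9.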

Additional observations from a re-analysis of the deposited data

Results flagged for a closer look

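In total 4 readings outside the comparisons had every treated array above every Control array. Only probe sets shared with another gene and members below the filter were searched, and only for higher readings. The share of such readings over all genes was not counted, so their number is no result about the members. The probe set that the annotation gives to DNAJC9 and MRPS16 together read at least 9.60 with Combo against 8.57 to 9.28 in Control, a mean difference of 0.767, while the DNAJC9 probe set of its own rose with Combo as well. Among members below the filter, DNAJC28 was higher by 0.424 with CPI203 (4.01 to 4.26 against 3.48 to 3.82), DNAJB8 by 0.264 with Combo and HSPB3 by 0.158 with Combo. The levels of DNAJB8 and HSPB3 were below 4.20 on every array, so their differences lie in the range of undetected genes. None of these was tested.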

How the results depend on the processing

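The 51 called values of members kept their directions with the mean of probe sets, with median centring and with each line left out. They also did so without the OCI-LY10 IRAKi array, which can move only comparisons with IRAKi. No filter, the stricter filter, trend and robust eBayes, no replicate block and only the groups compared leave the log2 changes unchanged by construction. Directions could therefore not turn under these. Poly-A scaling turned 3, all with Combo against Control: DNAJC16 to -0.11, DNAJC24 to -0.075 and DNAJC4 to -0.019. Of the partner genes it turned ATF4 to -0.13, TXNRD1 to -0.12, STUB1 to -0.068 and UNC45A to -0.066. In the paired analysis, with cell line as the replicate block, 10, 0, 25, 4 and 12 members were called with CPI203, IRAKi and Combo against Control and with Combo against CPI203 and IRAKi. Without the replicate block these became 0, 0, 3, 0 and 0, against 4, 0, 465, 2 and 7 of the 13120 genes tested. Leaving out 1 line at a time gave 2 to 4 with CPI203, 10 to 20 with Combo, 0 to 0 against CPI203 and 3 to 9 against IRAKi, in fits with fewer samples. A fit of only the groups compared gave 12 with Combo, 2 against CPI203 and 4 against IRAKi. Trend and robust eBayes gave 4 with IRAKi and 10 for Combo against CPI203. Poly-A scaling gave 2 with IRAKi and 1 for Combo against CPI203. Without the OCI-LY10 IRAKi array 6 remained for Combo against IRAKi and 23 for Combo against Control. The interaction term gave 0 under each alternative. Of the 51 calls, 51 were kept by the stricter filter, 50 by median centring, 49 with trend and robust eBayes, 48 without a filter, 40 with the mean of probe sets, 33 with poly-A scaling and 25 with only the groups compared. Genes near the filter level, such as DNAJC17, have falls that the low signal limits.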
